A study of Mus musculus with 4 samples.

Results

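The members are the epidermal growth factor (EGF) receptor ligand genes Ereg, Areg, Hbegf, Btc and Tgfa, the receptor gene Egfr, and 2 genes for inhibitors of the receptor, Errfi1 and Lrig1. They were chosen by name, as the probe sets whose platform annotation symbol is exactly 1 of these 8 symbols. The rule found 18 probe sets for 7 of the 8 genes, out of 12393 genes with a usable probe set in the series. No probe set carries the symbol Areg, so Areg (amphiregulin) is not analysed here. Of the 7 genes, 5 were above a detection floor on at least 1 array, against 7147 of the 12393 genes in the series.

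RNA was measured on 4 one-colour Affymetrix arrays, each from 1 dish of mouse synovial fibroblasts, the cells that line the joint. Per the labels, the cells came from knees of male DBA/1J mice 8 to 12 weeks old without arthritis, were passaged 3 to 4 times and were kept in medium with 1% serum. All dishes were harvested after 6 h. The first group received IL-1β at 5 ng/ml with 1 µM indomethacin and 1 µM iloprost, the second IL-1β with indomethacin, the third IL-1β alone and the last vehicle. IL-1β is a cytokine of joint inflammation, indomethacin blocks the cyclooxygenases that start prostanoid synthesis, and iloprost mimics the prostanoid prostacyclin. The title of the series names the effect of prostacyclin signalling on fibroblasts activated by IL-1β as its question. Whether a dish held cells of 1 mouse or of several is not given in the sources used here.

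Ligands of the EGF family are made as membrane-bound precursors. Proteases of the ADAM family, ADAM17 above all, cut them free, and the released ligands bind the EGF receptor or its relatives of the ErbB family. The bound receptor signals through adaptors and the RAS and ERK kinase cascade, which in turn switches on genes for its own inhibitors. Fibroblasts respond to EGF receptor ligands as growth factors. Prostacyclin acts on a receptor that raises cyclic AMP.

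Each group had 1 array, so no value has an error between dishes, there is no test and no p-value, and every difference describes these 4 dishes. The median signal per array was between 35.2 and 40.6, and 48.8% to 51.2% of probe sets exceeded the floor, set at 37.6, the 50th percentile over all arrays. Ratios are on the log2 scale and relative to the median gene of each array, and a gene is called higher or lower at 2-fold, a log2 ratio of 1 or more in size. Where 1 array of a comparison is at the floor, only a limit is known, and the ratio is given as at least or at most that value. As a measure of noise within an array, the log2 ratios of probe sets of the same gene differed with an SD of 0.20 to 0.21 per probe set, over 2272 genes. Only probe sets above the floor on all 4 arrays entered it, so probe sets that cross the floor are not covered. This noise holds no difference between dishes. The 6 comparisons share arrays, so an error on 1 array moves several of them together or in opposite ways.

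All 9 fibroblast markers looked at were above the floor on every array, and so were all 10 macrophage markers, among them Csf1r and Lyz2. None of 8 epithelial, 5 endothelial or 4 lymphocyte markers with a probe set was above the floor on any array, and of 5 chondrocyte markers 1 was. The cultures thus held RNA of macrophage marker genes beside that of fibroblasts. In such bulk RNA, fewer cells of a type and less RNA per cell cannot be told apart.

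Epiregulin, encoded by Ereg, is a ligand of the EGF receptor and of ErbB4. Its 1 probe set had signals of 264.4 with IL-1β, indomethacin and iloprost, 440.4 with IL-1β and indomethacin, 575.5 with IL-1β alone and 37.5 with vehicle. Ereg was high in all 3 dishes with IL-1β and just under the floor in the vehicle dish. IL-1β alone stood at a log2 ratio of at least 3.71 against vehicle, IL-1β with indomethacin at at least 3.47 and IL-1β with both drugs at at least 2.73. Among the dishes with IL-1β, Ereg was lowest where iloprost was present. Its ratio was -0.24 for indomethacin added to IL-1β, close to the probe set noise, and -0.74 for iloprost added to IL-1β and indomethacin. IL-1β with both drugs against IL-1β alone stood at -0.98, just short of 2-fold. On the scale as deposited, with no correction for the brightness of the arrays, this ratio was -1.12 and past 2-fold.

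Heparin-binding EGF-like growth factor, encoded by Hbegf, also binds the EGF receptor and ErbB4, and its precursor is the receptor for diphtheria toxin in humans. The brighter of its 2 probe sets had signals of 119.4 with IL-1β, indomethacin and iloprost, 281.5 with IL-1β and indomethacin, 228.8 with IL-1β alone and 39.0 with vehicle. The second probe set had 54.3 with IL-1β, indomethacin and iloprost, 117.5 with IL-1β and indomethacin, 94.2 with IL-1β alone and 17.9 with vehicle. Both probe sets were highest with IL-1β and indomethacin and lowest with vehicle. Hbegf stood at 2.33 for IL-1β against vehicle, 2.77 for IL-1β with indomethacin against vehicle and 1.53 for IL-1β with both drugs against vehicle. Indomethacin added to IL-1β gave 0.45 and 0.47 on the 2 probe sets. Iloprost added to IL-1β and indomethacin gave -1.25 and -1.12, so both probe sets were past 2-fold lower. The vehicle signal of the brighter probe set was only just above the floor, so its ratios against vehicle rest on a low value.

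The remaining ligands with a probe set were not detected above the floor. Btc encodes betacellulin, and its 2 probe sets had signals from 7.2 to 21.7 over the 4 arrays. Tgfa encodes transforming growth factor α, and its 3 probe sets had signals from 2.3 to 23.4. No ratio is given for either gene. In the mouse genome Ereg, Areg and Btc lie next to one another on chromosome 5, with no protein-coding gene between Ereg and Areg or between Areg and Btc in the RefSeq table of GRCm38.p6. Of these neighbours, Ereg was high in the dishes with IL-1β while Btc stayed below the floor in every dish.

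**Figure D1:**
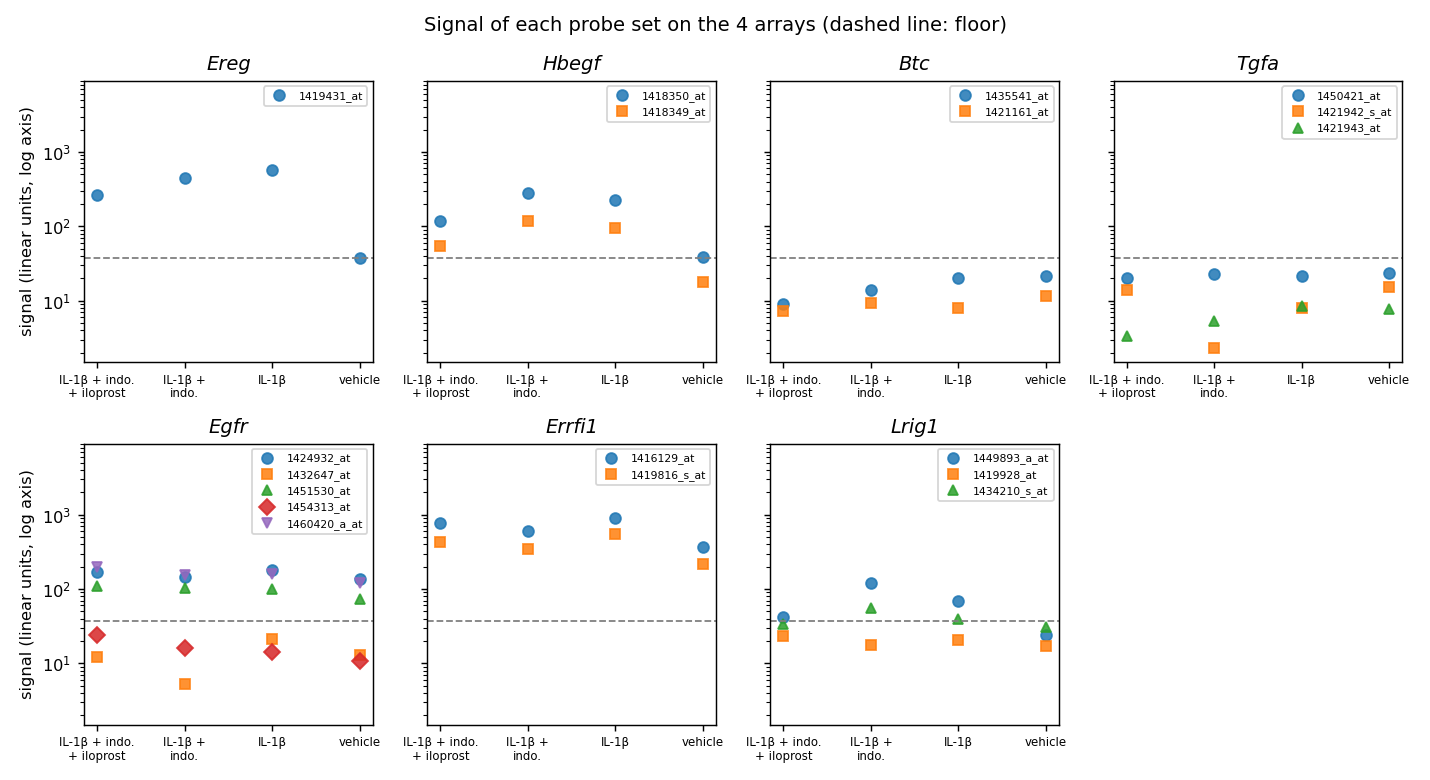
Signal of each probe set (linear units on a log axis) of the 7 genes with a probe set, in the dishes with IL-1β, indomethacin (indo.) and iloprost, IL-1β and indomethacin, IL-1β, and vehicle, left to right. Each point is 1 probe set on 1 array, with no replicates, and the dashed line is the floor of 37.6. Ereg and Hbegf stand near or below the floor with vehicle and above it in the other 3 dishes, while every point of Btc and Tgfa is below it.

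Egfr encodes the receptor. Of its 5 probe sets 3 were above the floor on all arrays and 2 below it on all. The 3 had signals of 168.3, 110.8 and 199.2 with IL-1β, indomethacin and iloprost, 143.1, 102.5 and 152.1 with IL-1β and indomethacin, 179.9, 99.4 and 159.9 with IL-1β alone, and 137.2, 74.3 and 121.6 with vehicle. Each of the 3 had its lowest deposited signal with vehicle. For IL-1β against vehicle they stood at 0.17, 0.19 and 0.17 relative to the median gene, within 1 SD of the probe set noise. For indomethacin added to IL-1β the 3 probe sets differed in sign, at -0.18, 0.19 and 0.08. For iloprost added to IL-1β and indomethacin they stood at 0.23, 0.10 and 0.38. The largest Egfr ratios were those of IL-1β with both drugs against vehicle, at 0.21, 0.49 and 0.63. Against IL-1β alone, IL-1β with both drugs stood at 0.04, 0.30 and 0.46. On the last of these probe sets both ratios were more than 2 times the probe set SD of 0.21, and so was the ratio of 0.49. In no comparison was an Egfr probe set 2-fold higher or lower.

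Errfi1, also called Mig6 or RALT, encodes an adaptor that binds the kinase domain of the EGF receptor and blocks it, and it is itself switched on by growth factor signals. Its brighter probe set had signals of 777.0 with IL-1β, indomethacin and iloprost, 604.2 with IL-1β and indomethacin, 890.1 with IL-1β alone and 370.4 with vehicle. The second had 425.8 with IL-1β, indomethacin and iloprost, 341.3 with IL-1β and indomethacin, 545.8 with IL-1β alone and 217.7 with vehicle. On the deposited signals both probe sets put the 4 dishes in the same order. IL-1β alone was highest, IL-1β with both drugs next, then IL-1β with indomethacin, and vehicle lowest. Errfi1 stood at 1.04 and 1.10 on the 2 probe sets for IL-1β against vehicle. Indomethacin added to IL-1β gave -0.41 and -0.53, and iloprost added to both gave 0.35 and 0.31. IL-1β with both drugs was at -0.06 and -0.22 against IL-1β alone, near the probe set noise. With the arrays scaled to a common trimmed mean or by quantiles, the brighter probe set stood at 0.01 and 0.03 in this comparison. Which of these dishes was highest on the brighter probe set thus depends on the scaling. The second probe set was lower with both drugs on the 2 scales given for it, at -0.22 and, as deposited, -0.36. The drug ratios of Errfi1 all fell short of 2-fold, and the IL-1β ratio of the brighter probe set passed it narrowly.

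Lrig1 encodes a transmembrane protein that binds EGF receptor family members and promotes their breakdown. Its brightest probe set had signals of 41.9 with IL-1β, indomethacin and iloprost, 121.1 with IL-1β and indomethacin, 69.7 with IL-1β alone and 23.9 with vehicle. A second had 33.5 with IL-1β, indomethacin and iloprost, 56.2 with IL-1β and indomethacin, 39.2 with IL-1β alone and 30.6 with vehicle. The other was below the floor on all arrays. The dish with IL-1β and indomethacin was the highest on both, and the dishes with iloprost or vehicle lay near or below the floor. Lrig1 stood at at least 0.66 for IL-1β against vehicle and at at least 1.61 for IL-1β with indomethacin against vehicle. Indomethacin added to IL-1β gave 0.94, and 0.67 on the second probe set. Among the 6501 genes measured on both of these arrays, the ratio of 0.94 was the 20th highest. Iloprost added to IL-1β and indomethacin gave -1.54, and at most -0.59 on the second probe set. These signals are low, and the ratios rest on values close to the floor.

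Side by side, Errfi1 stood at -0.41 for indomethacin added to IL-1β and 0.35 for iloprost added to both, and Lrig1 at 0.94 and -1.54. Of these 4 ratios only the last passed 2-fold. Both drug comparisons share the array of IL-1β with indomethacin, and an error on it alone moves the 2 ratios of a gene in opposite directions. The windows before the starts of these inhibitor genes are shown because iloprost acts on a receptor of the cyclic AMP pathway, and a rise in cyclic AMP is known to act through the factor CREB, which binds the cAMP response element TGACGTCA. From the RefSeq promoter table of GRCm38.p6, 7 windows for 6 of the 8 members were taken. The 250 bases before each start were searched on both strands. Ereg had no window, and Hbegf was left out of the search, so nothing is said of either. The full element was in 1 of the 2 Errfi1 windows, at bases 51 to 44 before the start, and in the Areg window, at bases 61 to 54. It was in none of the windows of Btc, Tgfa, Egfr or Lrig1. Of all 32851 windows of the same length, 1.55% held it. The shorter half-site TGACG, which lies within the full element, was in 17.77% of all windows and was not in the Lrig1 window. In the sequences below, 5′ to 3′ on the strand of the gene, capitals mark the full element. The 2 Errfi1 windows are at chr4:150854820-150855069 and chr4:150853546-150853795, both on the plus strand, and the Lrig1 window is at chr6:94700146-94700395 on the minus strand.
Errfi1, downstream start: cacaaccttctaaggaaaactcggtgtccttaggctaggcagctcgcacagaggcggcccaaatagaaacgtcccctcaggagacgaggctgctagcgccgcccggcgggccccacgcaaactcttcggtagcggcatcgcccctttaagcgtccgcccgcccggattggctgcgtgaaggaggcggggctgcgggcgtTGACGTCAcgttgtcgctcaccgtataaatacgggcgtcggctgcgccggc
Errfi1, upstream start: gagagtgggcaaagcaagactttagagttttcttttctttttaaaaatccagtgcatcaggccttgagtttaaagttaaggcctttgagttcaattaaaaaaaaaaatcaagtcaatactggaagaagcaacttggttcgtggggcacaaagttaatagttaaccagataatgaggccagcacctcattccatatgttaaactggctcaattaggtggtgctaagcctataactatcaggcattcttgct
Lrig1: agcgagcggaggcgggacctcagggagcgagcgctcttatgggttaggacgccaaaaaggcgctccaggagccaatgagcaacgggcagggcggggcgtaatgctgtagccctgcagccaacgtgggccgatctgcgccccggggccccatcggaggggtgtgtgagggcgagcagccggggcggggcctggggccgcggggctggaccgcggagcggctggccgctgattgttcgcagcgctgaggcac
A match describes these letters only, and nothing was measured of any factor bound there. A link between the element and the ratios of Errfi1 or Lrig1 was not tested.

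For IL-1β against vehicle, 3 of the 5 measured members were at least 2-fold higher, Ereg, Hbegf and Errfi1, and 0 were lower. Over all 6964 genes measured in this comparison, 1.72% were at least 2-fold higher and 0.56% lower. The counts were 120 and 39 on this scale, against 195 and 11 on the deposited one. The median of the 5 members was 1.04 with the bounds of Ereg and Lrig1 taken as values, against -0.02 for all genes. Ereg and Lrig1 were below the floor with vehicle, so they entered the 5 only through the IL-1β array, where they were higher. Members were also chosen with earlier results of these data known. The count and median therefore describe these genes and are no evidence about the set. The same holds for the other comparisons with vehicle. Hbegf was the 13th highest ratio and Errfi1 the 79th among the 6431 genes measured on both arrays. These ranks leave out every gene below the floor with vehicle, among them Ereg, at at least 3.71. With the arrays scaled to a common trimmed mean or by quantiles, Errfi1 was short of 2-fold, at 0.99 and 0.98. With a floor at the 35th percentile Lrig1 joined the 3.

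For indomethacin added to IL-1β, 0 of the 5 measured members passed 2-fold in either direction, where over all 6932 genes 0.245% were higher and 0.664% lower. That is 17 and 46 genes, against 9 and 60 on the deposited scale. The members lay on both sides, with Lrig1 at 0.94 and Hbegf at 0.45 above the median gene and Ereg, Egfr and Errfi1 below it. For Egfr this holds on the probe set used, at -0.18, while the others above the floor stood at 0.19 and 0.08. The median of the members was -0.18.

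For iloprost added to IL-1β and indomethacin, 2 of the 5 measured members were at least 2-fold lower, Hbegf and Lrig1, and 0 were higher. Over all 6986 genes 3.19% were lower and 1.98% higher. The median of the members was -0.74, against 0.04 for all genes. Lrig1 and Hbegf were the 6332nd and the 6273rd highest of 6414 ratios measured on both arrays. With a floor at the 65th percentile, or with all probe sets of a gene averaged, Lrig1 no longer passed 2-fold. The average takes in 1 Lrig1 probe set below the floor on both arrays, counted as no change, and 1 known only as a limit.

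For IL-1β with both drugs against IL-1β alone, 0 of the 5 measured members passed 2-fold, where over all 7050 genes 0.95% were higher and 2.37% lower. That is 67 and 167 genes, against 44 and 220 on the deposited scale. On the probe sets used for each gene, Ereg at -0.98, Hbegf at -0.80 and Lrig1 at -0.60 were all below the median gene. Errfi1 at -0.06 and Egfr at 0.04 lay close to it. The second Errfi1 probe set stood at -0.22, and the other Egfr probe sets above the floor at 0.30 and 0.46.

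Against vehicle, IL-1β with indomethacin had 3 of 5 members at least 2-fold higher, Ereg, Hbegf and Lrig1, and 0 lower, where over all 6804 genes 1.32% were higher and 0.323% lower. Lrig1 lost this call with a floor at the 65th percentile, at at least 0.37, and with averaged probe sets, at at least 0.68. Hbegf had the 3rd highest ratio of 6362 measured on both arrays. This rank leaves out every gene below the floor with vehicle, among them Ereg, at at least 3.47. IL-1β with both drugs had 2 of 5 higher against vehicle, Ereg and Hbegf, and 0 lower, where over all 6983 genes 2.72% were higher and 3.34% lower. That is 190 and 233 genes, against 220 and 206 on the deposited scale. Hbegf lost its call with a floor at the 65th percentile, at at least 0.37, and with averaged probe sets, at at least 0.98. The second Hbegf probe set, at 17.9 with vehicle, was raised to the floor before averaging. Both values are thus limits and do not show that the ratio was below 2-fold. Errfi1 stood at 0.63 with indomethacin and at 0.98 with both drugs against vehicle. Lrig1 stood at at least 0.07 with both drugs against vehicle, from a signal just above the floor. In the dish with IL-1β and indomethacin, Ereg and Hbegf were well above the vehicle dish, where their signals lay near or below the floor. No prostanoid was measured, and whether these genes depend on prostanoids was not tested.

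**Figure D2:**
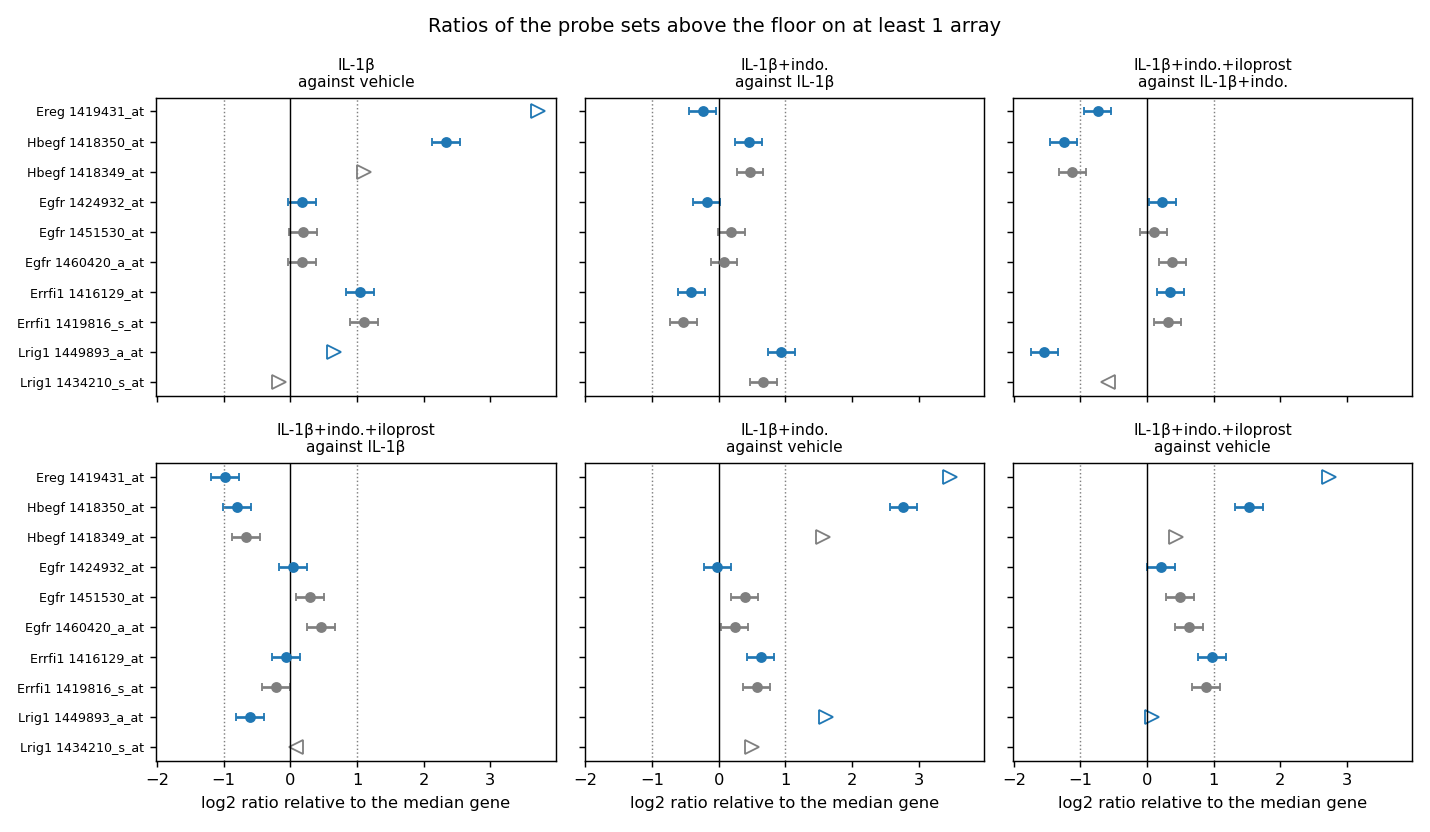
Log2 ratio relative to the median gene for the 10 probe sets above the floor on at least 1 array, in 6 comparisons. Filled points have bars of 1 SD of the probe set noise (0.20 to 0.21), open triangles are bounds pointing to where the ratio lies, blue marks the probe set used for a gene and grey the others, and dotted lines mark 2-fold. The noise is that of probe sets above the floor on every array. Hbegf and Lrig1 lie right of 0 for indomethacin added to IL-1β and left of it for iloprost added to both, and Errfi1 lies on the opposite sides.

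The other genes of the pathway were looked at by list. Of 4 further ligand genes with a probe set (Egf, Epgn, Nrg3 and Nrg4) and the receptor genes Erbb2, Erbb3 and Erbb4, none was above the floor on any array. Egfr was thus the only one of the 4 ErbB receptor genes above this floor. Erbb2 came closest among the others, with signals from 18.5 to 34.4, so its place below depends on where the floor is set. Of 9 shedding genes, 0 were 2-fold higher or lower with IL-1β against vehicle, and their median was 0.05. With iloprost added to IL-1β and indomethacin, 1 of the 9 was at least 2-fold higher, against 1.98% over all genes. It was the protease gene Adam8 at 1.26, which had signals of 2164.6 with iloprost and 897.9 without. Adam17, the main protease for epiregulin and HB-EGF, was singled out after its values were seen. Its 3 probe sets had signals of 321.8, 526.1 and 290.0 with iloprost, against 485.3, 984.7 and 312.5 without, or log2 ratios of -0.60, -0.91 and -0.12. All were below 0 and none passed 2-fold, and the 3 probe sets differed in size.

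Of 8 measured genes for adaptors and the RAS to ERK cascade, 0 passed 2-fold for IL-1β against vehicle, for indomethacin added to it or for iloprost added to both, with medians of 0.08, -0.13 and 0.01. Their ratios in these comparisons lay between -0.48 and 0.99, the highest being the adaptor gene Gab1 with iloprost, singled out after its values were seen. Of 11 measured feedback inhibitor genes beside the members, 1 was at least 2-fold higher with IL-1β against vehicle, the ERK phosphatase gene Dusp6 at 1.33, against 1.72% over all genes, and the list median was 0.33. As deposited, each of these list medians for IL-1β against vehicle is 0.23 higher, the shift of the median gene. Dusp6 had signals of 300.4 with IL-1β and both drugs, 360.8 with IL-1β and indomethacin, 542.8 with IL-1β alone and 184.1 with vehicle. With iloprost added to IL-1β and indomethacin 0 of the 11 were higher and 1 was at least 2-fold lower, the RAS inhibitor gene Spred1 at -1.18, against the same 1.98% and 3.19% over all genes. The other 2 probe sets of Spred1 stood at -0.92 and -0.94.

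Of 15 measured genes that ERK signalling is known to induce, 6 passed 2-fold upwards with IL-1β against vehicle and 0 downwards, with a list median of 0.18. Over all genes in that comparison, as given above, 1.72% were higher and 0.56% lower. The largest were Fosl1, an AP-1 subunit, at at least 1.89, Phlda1 at 1.86, the early response gene Ier3 at 1.76 and the urokinase receptor gene Plaur at 1.63. With indomethacin added to IL-1β 0 of the 15 passed 2-fold, and the median was 0.09. With iloprost added to IL-1β and indomethacin 0 were higher and 2 at least 2-fold lower, the early growth response gene Egr1 at -1.33 and the cyclin D1 gene Ccnd1 at -1.09, with a median of -0.29. Over all genes 1.98% were higher and 3.19% lower in that comparison. Egr1 had signals of 157.9 with iloprost and 393.3 without. These genes respond to many signals besides the EGF receptor, and no receptor activity was measured.

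**Figure D3:**
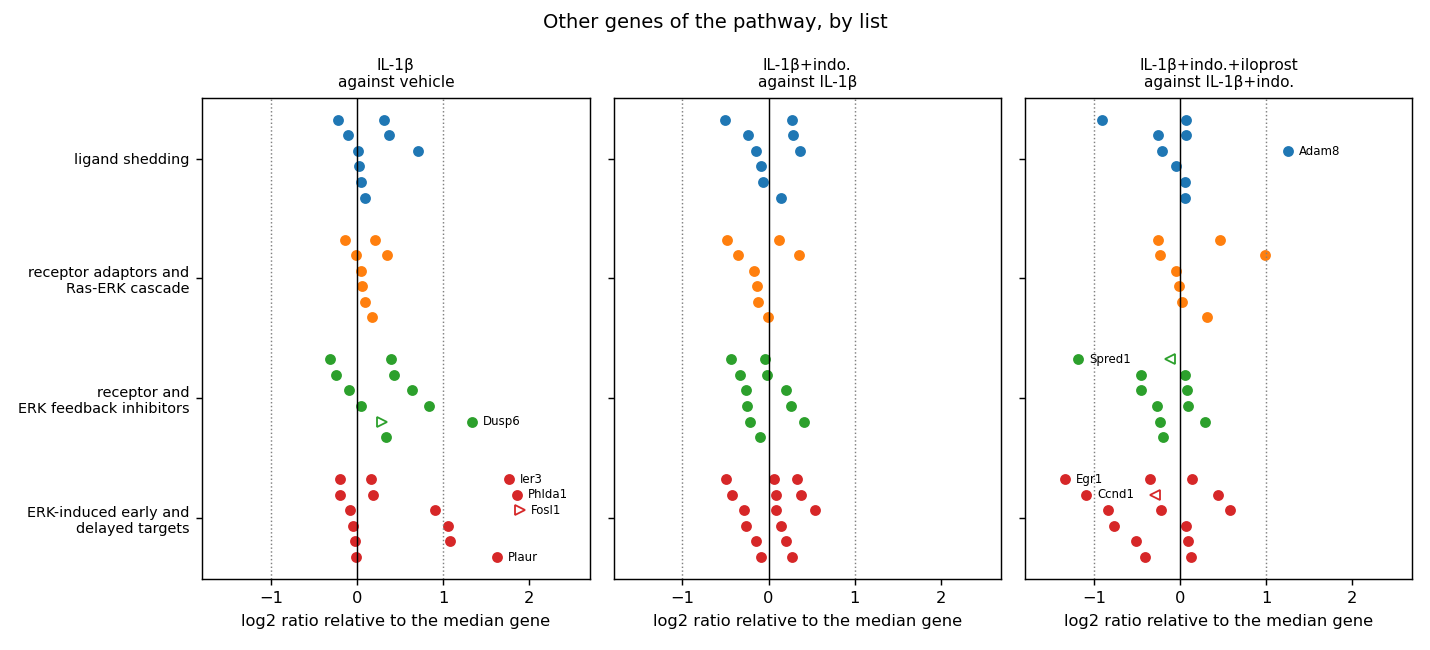
Log2 ratio relative to the median gene of each measured gene of 4 pathway lists, for IL-1β against vehicle, indomethacin (indo.) added to IL-1β, and iloprost added to both. Each point is 1 gene, open triangles are bounds, dotted lines mark 2-fold, the height within a list only spreads the points, and up to 4 genes past 2-fold are named per list and direction. Fosl1, Phlda1, Ier3 and Plaur stand furthest right with IL-1β, and Egr1, Spred1 and Ccnd1 past 2-fold lower with iloprost.

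Some macrophage marker genes moved beside these ratios. With iloprost added to IL-1β and indomethacin, 9 of the 10 macrophage markers lay below the median gene. Their median was -0.36, against 0.04 for all genes, with ratios from -1.46 for Fcgr1 to 0.62 for Cd14. At least 2-fold lower was 1 of 10, against 3.19% over all genes. Lyz2 at -0.09, Csf1r at -0.07 and Cd68 at -0.11 were within the probe set noise of 0.20. For IL-1β with both drugs the median of the 10 markers was -0.46 against IL-1β alone, with 1 of 10 at least 2-fold lower. Against vehicle it was -0.51, with 3 of 10 lower, Fcgr1, Adgre1 and Cybb. Over all genes 2.37% were at least 2-fold lower against IL-1β alone and 3.34% against vehicle. The summed deposited signal of the 10 was 21338.0 with IL-1β and both drugs, 21985.0 with IL-1β and indomethacin, 26142.3 with IL-1β alone and 22534.5 with vehicle. Cd14, the only marker above the median gene with iloprost added, held 6561.6, 4253.7, 6259.1 and 4308.0 of these sums in the same order. The sums therefore hide the lower signals of the other 9 markers with iloprost. The 9 fibroblast markers had a median of 0.04 with iloprost added to IL-1β and indomethacin. Their summed signal was 25272.2 with IL-1β, indomethacin and iloprost, 24226.1 with IL-1β and indomethacin, 26068.7 with IL-1β alone and 24410.0 with vehicle. For indomethacin added to IL-1β the macrophage median was -0.03 and for IL-1β against vehicle -0.12. The part of either cell type in the ratios of Hbegf, Ereg and Lrig1 was not tested.

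Genes with the most similar pattern were found for the 4 members whose log2 signal spanned 1 or more over the arrays, Ereg, Hbegf, Errfi1 and Lrig1. Each pattern is the log2 signal over 4 arrays relative to the median gene, centred on its mean, and likeness is the largest difference between 2 patterns on any array, among 4689 bright genes. With 4 arrays such likeness is a description only. For Ereg the nearest genes were Zc3h12a at 0.31 and Lif and Lcn2 at 0.47, which encode an RNase of cytokine transcripts, the cytokine LIF and lipocalin 2. For Hbegf they were the chemokine gene Ccl20 at 0.29, Lmcd1 at 0.38 and the transcription factor gene Ets1 at 0.40. For Errfi1 they were Cyth1 at 0.06, the glucose transporter gene Slc2a1 at 0.07 and the protease inhibitor gene Slpi at 0.10. For Lrig1 they were Nos2, the inducible nitric oxide synthase, at 0.05, Igfbp3, which binds insulin-like growth factors, at 0.16 and Cdc42ep3 at 0.21. Nos2 had signals of 44.9 with IL-1β and both drugs, 120.7 with IL-1β and indomethacin, 74.8 with IL-1β alone and 17.1 with vehicle. Like Lrig1 it was below the floor with vehicle and highest with IL-1β and indomethacin.

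**Figure D4:**
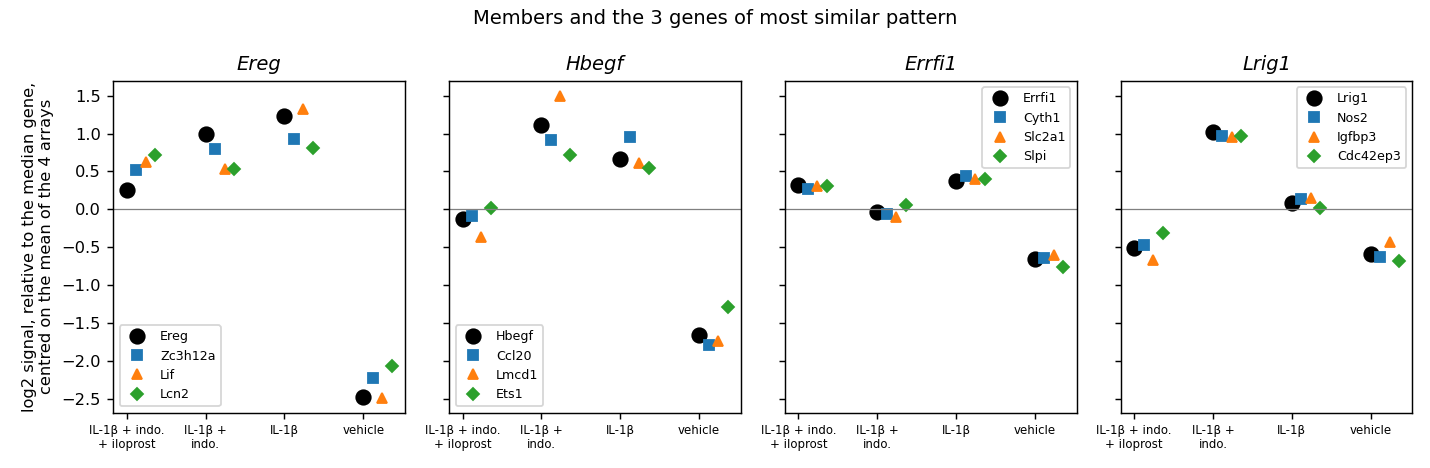
Log2 signal relative to the median gene, centred on the mean of the 4 arrays, for Ereg, Hbegf, Errfi1 and Lrig1 (black) and the 3 genes of most similar pattern for each (coloured, shifted sideways for clarity), in the dishes with IL-1β, indomethacin (indo.) and iloprost, IL-1β and indomethacin, IL-1β, and vehicle, left to right. Signals below the floor are drawn at the floor. Ereg falls short of its nearest genes in the dish with iloprost, and the points of Errfi1 and of its nearest genes differ by at most 0.10.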

How the data were processed

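The authors deposited a linear intensity for each probe set on each array. Per the labels' protocols, labelling followed the standard Affymetrix procedure. How probes were summarised, corrected for background and scaled is not stated there. Precision is limited by the number of arrays. Of 22690 probe sets, 20380 name 1 gene in the platform annotation, which can be old, and are no control probe set. All 7 member symbols matched RefSeq (GRCm38.p6) by gene number. Signals below the 50th percentile of all values, 37.6, were raised to it before taking log2. The probe set of highest mean log2 signal stood for a gene, and 6222 genes above the floor on every array set each array's median gene. The genes named are the members, the 3 nearest patterns of each among genes reaching 113.2 (the 70th percentile), and up to 4 list genes per direction past 2-fold. Members and lists were chosen with earlier results of these data known. With 1 array per group, no test was made. The steps were tested on simulated data in which only bright genes were changed, so signals near the floor were not covered. Scaling, floor and probe set choice were varied in 6 alternatives. Python 3.11.15 with pandas 2.3.3 and R 4.3.3 with limma 3.58.1 were used.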

Additional observations from a re-analysis of the deposited data

How the results depend on the processing

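With 1 array per treatment, no array could be left out and no value has an error between dishes. No paired analysis was possible because each treatment has 1 array. Of 177 recomputed ratios of members, 0 that were past 2-fold changed sign, 151 moved by no more than the probe set noise and 26 moved further. Of 36 recomputed counts of members past 2-fold, 29 stayed within 1.5 times. For iloprost added to IL-1β and indomethacin, 1 member in place of 2 passed 2-fold with a floor at the 65th percentile (Lrig1 at most -0.45) and with all probe sets averaged (Lrig1 at -0.72). For IL-1β with both drugs against IL-1β alone, 1 in place of 0, Ereg, passed as deposited (-1.12), with a floor at the 35th percentile (-1.02) and, just at the threshold, with averaged probe sets. For IL-1β with both drugs against vehicle, 1 in place of 2 passed with a floor at the 65th percentile (Hbegf at least 0.37). The same held with averaged probe sets (Hbegf at least 0.98, as 1 probe set was at the floor with vehicle). A higher floor sets more low signals equal, which shrinks ratios. The averages take in dimmer probe sets, and a probe set at the floor on both arrays counts as no change. The average of -0.72 for Lrig1 holds 1 such probe set and 1 known only as a limit, so it is not a measured ratio. Low signal limits Lrig1 and the vehicle values of Ereg and Hbegf. For IL-1β against vehicle, 120 and 39 genes of all were higher and lower, 185 and 103 with a floor at the 35th percentile and 77 and 20 at the 65th.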
